A study of Mus musculus with 20 samples.

Results

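Lipid droplets store triglyceride in fat cells and, in smaller amounts, in heart muscle. The 8 genes described here encode proteins of fat cells and of these droplets: Cidea, Cidec, Plin1, Plin2, Plin4, Ucp1, Adipoq and Pparg. They were taken by symbol, as 8 of the 55367 genes listed, and all of them were found. The RNA came from C57BL/6J pups that had breathed 100% oxygen (hyperoxia) or 21% oxygen (room air) since birth and were killed on postnatal day 4, and left atrium and left ventricle were sequenced separately. There were 4 groups with 5 libraries each, described as individual mice: hyperoxic atrium, room-air atrium, hyperoxic ventricle and room-air ventricle. All pups were of the same strain, no transgene or other agent was named, and the nursing dams were moved between the oxygen levels daily. The labels did not say whether an atrium and a ventricle with the same number came from the same pup, nor give the sex of the pups.

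By way of background, perilipins coat the droplet and control how lipases reach the lipid inside. Plin1 is the perilipin of fat cells, Plin2 and Plin3 occur in most tissues, Plin5 is typical of oxidative tissue such as heart, and Plin4 occurs in fat, heart and skeletal muscle. CIDE proteins (Cidea, Cidec and Cideb) pass lipid between touching droplets so that they grow. Adipoq encodes the hormone adiponectin of fat cells, Ucp1 the heat-producing uncoupling protein of brown fat, and Pparg the nuclear receptor that drives fat cell formation. PPAR receptors bind DNA with a retinoid X receptor, at repeats of the half-site AGGTCA.

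Total counts ranged from 26510081 to 38244117 per library. Values are in CPM, read counts relative to the depth of the library, with library sizes scaled by TMM, a normalization that assumes most genes are unchanged. The chamber labels matched the markers: the 4 atrial muscle genes summed to 17748 to 50097 CPM in atria and 215 to 1923 in ventricles, and the 4 ventricular ones to 383 to 902 in atria and 20629 to 41456 in ventricles. Within the ventricles, atrial Myl7 varied from 2.66 to 530 CPM. In 3 libraries (hyperoxic atria 2 and 4, room-air ventricle 4) levels were tilted towards genes with short transcripts, with slopes of log2 level on log2 exon length of -0.289 to -0.219, against -0.0689 to 0.133 in the other 17. Reads from Y-linked genes outnumbered Xist reads in all 10 room-air libraries, in 1 of 5 hyperoxic atria and in 2 of 5 hyperoxic ventricles. Oxygen and the sex of the pups are therefore partly confounded.

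The genes fell into an abundant and a scarce set. Cidea, Plin2, Plin4 and Pparg passed the filter on low counts and were tested with 16598 genes in all. Cidec, Plin1, Adipoq and Ucp1 did not pass it. These 4 are described by their counts.

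In the genome build of the files, GRCm38, Plin2 lies at chr4:86648386-86670060 on the minus strand, Plin4 at chr17:56100591-56109803 on the minus strand, and Pparg at chr6:115360951-115490399 on the plus strand. Ucp1 lies at chr8:83290352-83298452 and Adipoq at chr16:23146536-23158028, both on the plus strand, Cidec at chr6:113424634-113435760 and Plin1 at chr7:79720218-79732903, both on the minus strand. All 8 are annotated as protein-coding. Plin4 shares 17 exonic bases with Hdgfl2 on the opposite strand, and its start lies 1798 bases from the end of Plin5, a perilipin gene on the same strand.

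The 250 bases before the start of transcription are shown for Plin2 and Pparg, whose atrial response to hyperoxia was above the ventricular one, and for Plin4, for which no such difference was called without covariates. Plin5 is shown as the neighbour of Plin4, and its chamber difference was called only in fits without the length slope as a covariate. They come from RefSeq promoters of GRCm38.p6, are written 5′ to 3′ on the strand of the gene, and have the half-site AGGTCA, or its reverse complement, in capitals.
Plin2 (chr4:86670060-86670309, minus strand): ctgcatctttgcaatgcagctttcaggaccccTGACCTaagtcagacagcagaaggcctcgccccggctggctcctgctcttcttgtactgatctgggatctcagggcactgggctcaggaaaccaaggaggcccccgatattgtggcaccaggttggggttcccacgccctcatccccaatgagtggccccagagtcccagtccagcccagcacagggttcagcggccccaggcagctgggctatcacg
Plin4 (chr17:56109783-56110032, minus strand): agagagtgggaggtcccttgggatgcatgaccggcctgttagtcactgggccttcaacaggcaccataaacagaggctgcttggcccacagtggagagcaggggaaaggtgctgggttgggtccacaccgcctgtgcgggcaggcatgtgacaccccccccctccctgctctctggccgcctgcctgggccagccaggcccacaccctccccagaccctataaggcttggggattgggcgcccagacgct
Plin5 (chr17:56117549-56117798, minus strand, the first of 2 listed starts): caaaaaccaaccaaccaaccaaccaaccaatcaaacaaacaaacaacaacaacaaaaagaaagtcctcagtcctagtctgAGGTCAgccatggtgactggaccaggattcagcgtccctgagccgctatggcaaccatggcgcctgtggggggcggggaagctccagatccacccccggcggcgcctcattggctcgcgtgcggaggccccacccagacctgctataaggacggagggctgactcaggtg
Pparg (chr6:115360894-115361143, plus strand, the first of 3 listed starts): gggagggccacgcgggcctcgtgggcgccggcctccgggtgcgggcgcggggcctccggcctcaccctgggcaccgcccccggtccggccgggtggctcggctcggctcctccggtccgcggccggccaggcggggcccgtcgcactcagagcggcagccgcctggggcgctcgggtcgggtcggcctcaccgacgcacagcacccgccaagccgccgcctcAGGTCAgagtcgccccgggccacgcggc
A half-site began 218 bases before the start in Plin2, 170 in Plin5 and 28 in Pparg. The Plin4 window held none. Among windows not shown, a half-site began 14 bases before the start in Ucp1, a scarce member, and 9 before the second Pparg start. The third Pparg start, the second Plin5 start and the Cidec, Plin1 and Adipoq windows held none. Over all 32851 listed promoters, 14% of windows of this length held a half-site on either strand, so a match is common. Pairs of half-sites in the same direction and 1 base apart, the arrangement known for PPAR receptors, occurred in 0.0335% of windows and in none of the 4 shown. Of the 8 members, 7 were found in the promoter table.

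**Figure D1:**
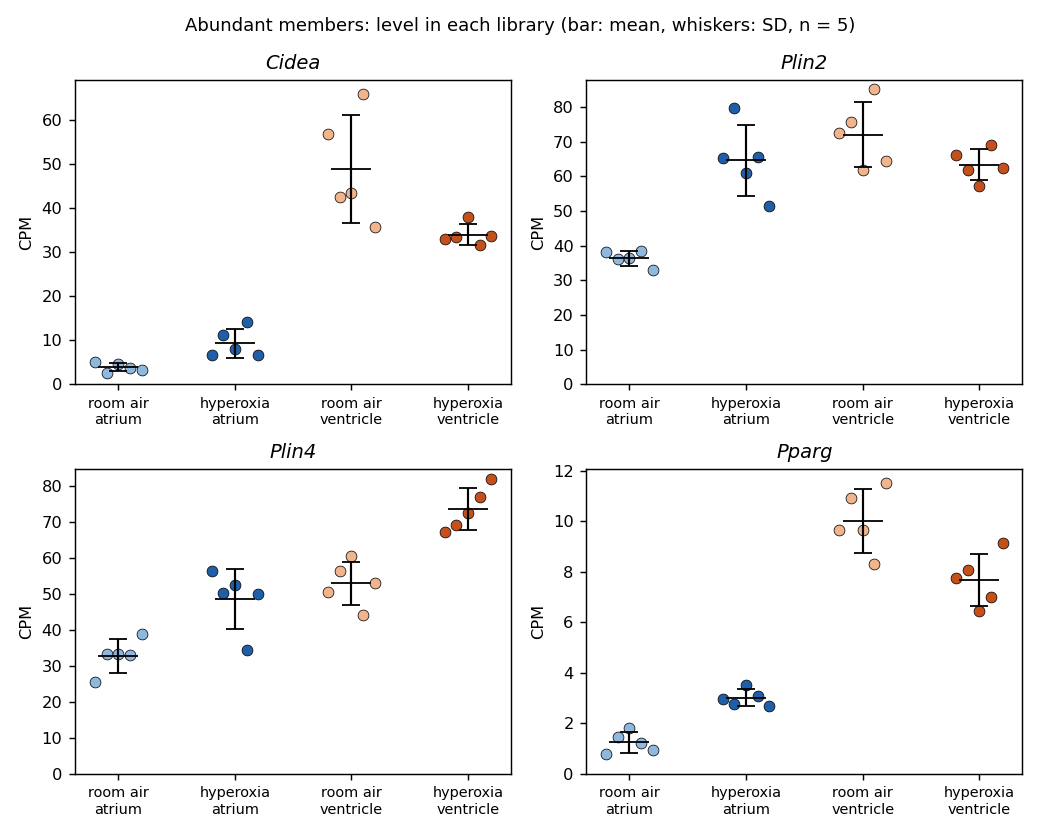
Level of Cidea, Plin2, Plin4 and Pparg in CPM (vertical axes, from 0) in each of the 20 libraries (points), by group, with the mean (bar) and SD (whiskers) of 5 libraries. Hyperoxic atria lie above room-air atria for Cidea, Plin2 and Pparg without overlap, and hyperoxic ventricles lie above room-air ventricles for Plin4.

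In the left atrium, all 4 abundant members were higher in hyperoxia than in room air. Over all genes tested, 19.7% were higher and 24.2% lower in this comparison, so changes were common. The median log2 difference of all genes was -0.06. The tissue was sequenced in bulk, where fewer cells of a type and less RNA per cell cannot be told apart.

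Cidea, on the plus strand of chromosome 18 (67343604 to 67367785), measured 4.96, 2.66, 4.58, 3.78 and 3.35 CPM in room-air atria 1 to 5, and 6.73, 11.3, 7.92, 14.1 and 6.62 in hyperoxic atria 1 to 5. Every hyperoxic library was above every room-air library, and the highest levels were in hyperoxic atria 2 and 4, both tilted towards short transcripts. Cidea rose by a log2 difference of 1.27 (SE 0.21, edgeR quasi-likelihood test, adjusted p = 4.5e-05), or 2.41-fold. Without the 3 tilted libraries the log2 difference was 0.88, and with the length slope as a covariate it was 0.79. With the slope and the Y-linked share of reads as 2 covariates it was 0.63 (edgeR adjusted p = 0.04).

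Pparg, a receptor at much lower abundance, measured 0.794, 1.46, 1.80, 1.21 and 0.924 CPM in room-air atria 1 to 5, and 2.98, 2.75, 3.52, 3.10 and 2.68 in hyperoxic atria. The groups did not overlap. Pparg rose by a log2 difference of 1.27 (SE 0.18, edgeR adjusted p = 7.8e-06). This value lay between 1.14 and 1.55 when sex-linked reads, length slope or both were taken into account.

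Plin2 measured 38.1, 36.2, 36.4, 38.5 and 33.0 CPM in room-air atria and 65.3, 79.8, 61.1, 65.6 and 51.6 in hyperoxic atria. Here too the groups were apart, and the room-air atria were close to each other. The log2 difference was 0.83 (SE 0.10, edgeR adjusted p = 1.4e-06), a 1.77-fold rise. Without the tilted libraries it was 0.70.

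Plin4 measured 25.5, 33.3, 33.2, 33.0 and 38.9 CPM in room-air atria and 56.2, 50.1, 52.5, 34.4 and 50.1 in hyperoxic atria. The low value belonged to hyperoxic atrium 4, a tilted library, and it lay within the room-air range. Plin4 rose by a log2 difference of 0.57 (SE 0.12, edgeR adjusted p = 0.00061). With length slope and Y-linked share as covariates, the difference was 1.0 (edgeR adjusted p = 2.5e-05).

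Markers of other cells moved in the same atria. All 6 endothelial markers fell, with sums of 495 to 726 CPM in hyperoxic and 838 to 1006 in room-air atria. Of 6 fibroblast markers 5 fell and 1 rose (sums of 4395 to 6167 against 9009 to 10139.9 CPM), and of 6 macrophage markers 4 rose (194 to 411 against 135 to 173 CPM). Muscle markers moved too. Of 7 cardiomyocyte markers 3 fell and 4 were not called. Of 4 atrial muscle markers 1 rose and 3 were not called (sums of 25951 to 50097 against 17748 to 22897 CPM). Of 4 ventricular ones 3 fell and 1 was not called. Of 5 mesothelial markers 2 rose, and of 5 smooth muscle and pericyte markers 2 rose and 2 fell. The part of these cells in the rise of the members was not tested.

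In the left ventricle, 1 of the 4 abundant members passed the test, against 5.64% of all genes higher and 5.28% lower. Plin4 measured 50.5, 56.3, 60.4, 44.2 and 53.1 CPM in room-air ventricles 1 to 5. It measured 67.3, 69.1, 72.6, 77.0 and 81.9 in hyperoxic ventricles 1, 2, 4, 5 and 6. All hyperoxic ventricles were above all room-air ventricles. The log2 difference was 0.48 (SE 0.12, edgeR adjusted p = 0.017). Plin4 no longer passed with the share of Y-linked reads as a covariate (log2 difference 0.51, edgeR adjusted p = 0.11), or among libraries whose Y-linked reads outnumbered Xist (0.51, adjusted p = 0.07). The same held with ventricular Myl7 as a covariate (0.41, edgeR adjusted p = 0.12), and without room-air ventricles 1 and 4 and hyperoxic ventricle 4, which lay apart (0.38, adjusted p = 0.18).

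The other 3 did not pass in the ventricle. Cidea measured 56.8, 42.4, 43.4, 65.9 and 35.6 CPM in room-air and 32.9, 33.5, 37.9, 31.5 and 33.7 in hyperoxic ventricles. The ranges overlapped through room-air ventricle 5 and hyperoxic ventricle 4, and the highest level belonged to room-air ventricle 4, the tilted library. Its log2 difference was -0.53 (SE 0.19, edgeR adjusted p = 0.075). Cidea was called lower in 6 of 35 other settings, among them DESeq2 (-0.54, adjusted p = 0.048) and the edgeR fit without hyperoxic atrium 4, and its difference ranged down to -0.16 with the length slope as a covariate.

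Pparg measured 9.64, 10.9, 9.67, 8.30 and 11.5 CPM in room-air and 7.77, 8.09, 6.45, 7.01 and 9.14 in hyperoxic ventricles. The ranges overlapped, and the log2 difference was -0.38 (SE 0.16, edgeR adjusted p = 0.12). It was called lower with DESeq2 (-0.40, adjusted p = 0.049) and with voom (-0.40, adjusted p = 0.026), a limma method. Plin2 measured 72.6, 75.7, 62.0, 85.3 and 64.6 CPM in room-air and 66.2, 62.0, 57.2, 69.0 and 62.5 in hyperoxic ventricles, which overlap widely. Its log2 difference was -0.18 (SE 0.10, edgeR adjusted p = 0.23).

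The responses of the chambers were compared directly as the atrial minus the ventricular log2 difference. For 3 of the 4 abundant members this was above 0 and passed, against 17% of all genes higher and 19.5% lower. It was 1.79 (SE 0.28, edgeR adjusted p = 8.9e-05) for Cidea, 1.65 (SE 0.24, adjusted p = 4.2e-05) for Pparg and 1.01 (SE 0.14, adjusted p = 3.1e-05) for Plin2. With the length slope as a covariate the first was 0.94 (edgeR adjusted p = 0.0052), the second 1.79 (0.0001) and the last 0.66 (0.00066). For Plin4 the difference was 0.10 (SE 0.17, edgeR adjusted p = 0.69), and 0.56 (adjusted p = 0.024) with length slope and Y-linked share as covariates.

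**Figure D2:**
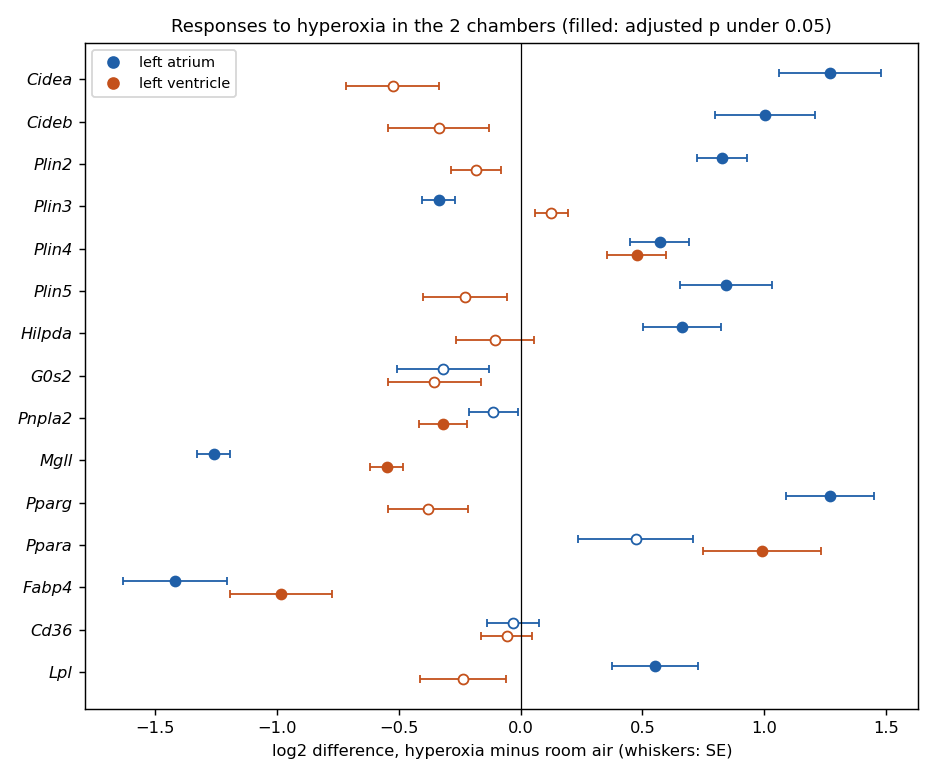
Log2 difference of hyperoxia minus room air (horizontal axis) with its SE for members and 11 genes of related function, in the left atrium (blue) and the left ventricle (orange), 5 libraries a group. Filled points passed the edgeR test at an adjusted p under 0.05. Cidea, Plin2 and Pparg lie at 0.83 to 1.27 in the atrium and at -0.53 to -0.18 in the ventricle, and Plin4 lies at 0.57 and 0.48.

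In room air, all 4 abundant members were lower in the atrium than in the ventricle, against 26.3% of all genes lower and 28.7% higher. The log2 difference of atrium minus ventricle was -3.66 (SE 0.22, edgeR adjusted p = 4.9e-12) for Cidea, a 12.6-fold difference. It was -3.01 (SE 0.18, adjusted p = 6.5e-12) for Pparg, or 8.03-fold. Plin2 differed by -0.98 (SE 0.10, edgeR adjusted p = 4.8e-08) and Plin4 by -0.69 (SE 0.12, adjusted p = 5.5e-05). No atrial library reached any ventricular one for Cidea, Pparg, Plin2 or Plin4 in room air.

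After hyperoxia the gaps were smaller for 3 of them, as the test of the difference above gives. Here 23.6% of all genes were lower and 25.2% higher in the atrium. Cidea was lower in the hyperoxic atrium by 1.87 on the log2 scale, as -1.87 (SE 0.20, edgeR adjusted p = 7.7e-08), and Pparg differed by -1.35 (SE 0.17, adjusted p = 6.8e-07). Plin2 averaged 64.6 ± 10.2 CPM in the atrium and 63.4 ± 4.48 in the ventricle (SD, n = 5), a log2 difference of 0.03 (SE 0.10, edgeR adjusted p = 0.84). Plin4 remained lower in the atrium at -0.60 (SE 0.12, edgeR adjusted p = 0.00029), or -0.35 (adjusted p = 0.0072) with length slope and Y-linked share as covariates. These comparisons share their groups with those above and are no independent support for them.

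Levels of different genes were compared per kilobase of annotated exon. In room-air ventricles Cidea came first with 43.8 ± 11.0 CPM per kilobase, followed by Plin2 with 20.5 ± 2.65, Plin4 with 9.15 ± 1.06 and Pparg with 3.39 ± 0.427 (SD, n = 5). In room-air atria the order was Plin2 with 10.4 ± 0.614, Plin4 with 5.67 ± 0.829, Cidea with 3.47 ± 0.832 and Pparg with 0.419 ± 0.137. In hyperoxic atria Plin2 stood at 18.4 ± 2.90, and Plin4 (8.42 ± 1.44) and Cidea (8.36 ± 2.92) did not differ beyond their spread. Hyperoxic ventricles had the same order as room-air ventricles, with Cidea at 30.4 ± 2.14, Plin2 at 18.0 ± 1.27, Plin4 at 12.7 ± 1.02 and Pparg at 2.60 ± 0.350.

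The scarce members are the ones that define fat cells. Adipoq had 46 counts over the 5 room-air atria and 16 over the 5 hyperoxic atria, 2 over the hyperoxic ventricles and 0 over the room-air ventricles, which allows up to 0.0225 CPM for that group (3 counts, counting error only). Of the 46, 37 came from room-air atrium 3. Plin1 had 27 counts in room-air atria, 20 of them from the same library, 11 in hyperoxic atria, 4 in room-air ventricles and 1 in hyperoxic ventricles. Cidec, which makes the single large droplet of white fat, had 9, 4, 4 and 2 counts in these groups. In room-air atrium 3 the 4 scarce members summed to 69 counts, against 1 to 18 in each of the other 19 libraries. The same library had the highest level of the 4 lung epithelium markers, summing to 18.1 CPM, against 0.0942 to 1.29 in the other 4 room-air atria. The part of adjoining tissue in its counts was not tested.

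Ucp1 was spread differently. It had 24 counts in room-air atria, 23 in hyperoxic atria, 20 in room-air ventricles and 25 in hyperoxic ventricles, with at most 14 in a library. Groups overlapped throughout. Ventricular libraries, with 31.5 to 65.9 CPM of Cidea, held at most 14 counts of Ucp1, 4 of Cidec and 1 of Adipoq.

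**Figure D3:**
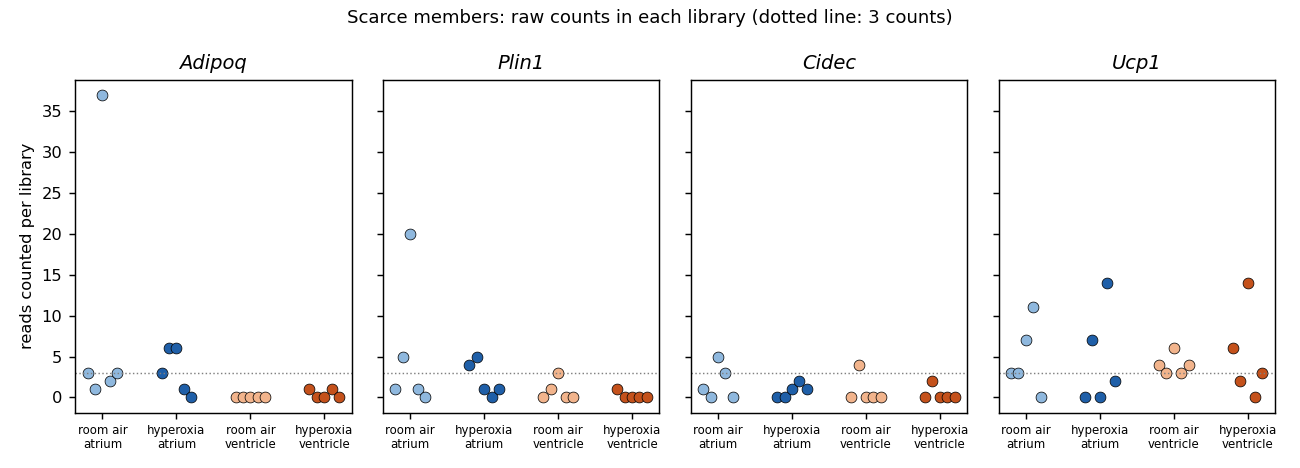
Raw read counts per library (vertical axis) of Adipoq, Plin1, Cidec and Ucp1 in the 4 groups (points are libraries, dotted line at 3 counts). Room-air atrium 3 stands alone with 37 counts of Adipoq and 20 of Plin1, while Ucp1 reaches at most 14.

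Several other fat cell markers were near 0 as well. Over all libraries of a group, the hormones Lep and Retn had at most 4 and 3 counts, the protease Cfd (adipsin) had 10 in room-air atria, 9 of them in atrium 3, and the brown fat genes Elovl3 and Otop1 had at most 5 and 4. Of the 7 white and brown adipocyte markers, 1 passed the filter: Fabp4, a fatty acid carrier of fat cells that capillary endothelium makes too. Fabp4 averaged 186 ± 19.9 CPM in room-air and 69.7 ± 29.3 in hyperoxic atria, and 1912 ± 478 in room-air and 968 ± 157 in hyperoxic ventricles (SD, n = 5). It fell in both chambers, with log2 differences of -1.42 (SE 0.21, edgeR adjusted p = 1.4e-05) and -0.98 (SE 0.21, adjusted p = 0.0067), opposite to Plin2 and Cidea in the atrium. The summed level of the 7 markers, nearly all Fabp4, was 161 to 212 CPM in room-air and 48 to 116 in hyperoxic atria, and 1442 to 2622 and 788 to 1152 in ventricles. Of 6 brown fat markers, Cidea, Dio2 and Prdm16 passed the filter, the last 2 named here to complete the list. Dio2, the deiodinase that activates thyroid hormone, had medians of 41.2 CPM in room-air and 36.0 in hyperoxic atria, and 6.4 and 4.36 in ventricles. Prdm16, a transcription factor of brown fat that is not limited to it, had medians of 2.95 and 1.63 CPM in atria and 18.8 and 24.0 in ventricles. Dio2 fell in both chambers (log2 differences -0.42 and -0.57, edgeR adjusted p = 0.018 and 0.024), and Prdm16 fell in the atrium (-1.03, adjusted p = 6.8e-05) with 0.32 in the ventricle (adjusted p = 0.16). With no filter on low counts, Adipoq was called higher in room-air atria than ventricles (edgeR adjusted p = 0.0019), a call in which room-air atrium 3 held most of the counts.

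Relatives of the members gave a mixed picture in the atrium. Plin5, which ties droplets to mitochondria, averaged 4.75 ± 0.862 CPM in room-air and 8.52 ± 2.14 in hyperoxic atria, and 71.1 ± 21.6 and 60.7 ± 6.60 in ventricles (SD, n = 5). It rose in the atrium (log2 difference 0.84, SE 0.19, edgeR adjusted p = 0.00097), and the chamber responses differed by 1.07 (SE 0.25, adjusted p = 0.0029). Once the length slope entered the fit, the chamber difference was 0.30 (edgeR adjusted p = 0.38), and with Y-linked share added it was 0.22 (adjusted p = 0.56). The atrial call was lost with these 2 covariates (0.29, edgeR adjusted p = 0.33). In the ventricle Plin5 gave -0.23 (SE 0.17, edgeR adjusted p = 0.39).

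Cideb, a relative best known from liver, rose in the atrium from 3.79 ± 0.171 to 7.61 ± 0.601 CPM (SD, n = 5), with a log2 difference of 1.0 (SE 0.21, edgeR adjusted p = 0.00048). Among libraries whose Y-linked reads outnumbered Xist it was 0.91, but this left 1 hyperoxic atrium, the tilted number 2. With slope and Y-linked share it was 0.65 (edgeR adjusted p = 0.18). Plin3, the perilipin that waits in the cytosol, fell in the atrium from 75.5 ± 2.86 to 59.8 ± 2.43 CPM, a log2 difference of -0.34 (SE 0.07, edgeR adjusted p = 0.00041). In the ventricle it gave 0.13 (SE 0.07, edgeR adjusted p = 0.22), and the responses differed (-0.46, adjusted p = 0.0011).

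As a share of all perilipin CPM per kilobase, Plin3 made up 52.1% ± 1.34 in room-air atria and 34.0% ± 2.88 in hyperoxic atria (SD, n = 5), with no overlap of libraries. Plin2 made up 27.1% ± 1.83 and 39.2% ± 3.28, again apart. In room-air ventricles the largest share was Plin5, with 40.0% ± 5.39, and it was 35.5% ± 2.33 in hyperoxic ventricles. Plin4 took 14.8% ± 2.03 and 18.1% ± 3.40 in atria and 11.2% ± 2.51 and 15.6% ± 0.915 in ventricles, in room air and hyperoxia. Plin1 stayed at or below 0.300% in every library.

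**Figure D4:**
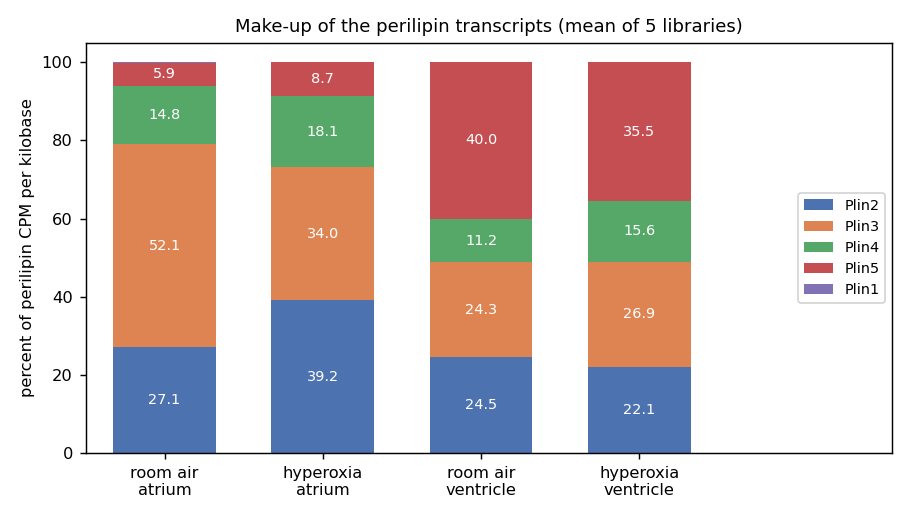
Mean share of each perilipin (colours) in the summed perilipin level, in percent of CPM per kilobase of exon (vertical axis), for 5 libraries in each of the 4 groups (bars). Plin3 leads in room-air atria with 52.1%, Plin2 in hyperoxic atria with 39.2%, and Plin5 in both ventricular groups.

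The counts of the gene lists that follow are to be read against the shares of all genes, 19.7% higher and 24.2% lower in the atrium and 5.64% and 5.28% in the ventricle. Among 30 tested genes for other droplet proteins, lipases and triglyceride synthesis, 9 were higher, 9 lower and 12 not called in the atrium, with a median log2 difference of -0.05 against -0.06 for all genes. In the ventricle 3 were higher, 4 lower and 23 not called. Hilpda, an inhibitor of triglyceride lipase, rose in the atrium (log2 difference 0.66, SE 0.16, edgeR adjusted p = 0.0019). The monoglyceride lipase gene Mgll fell in both chambers, by -1.26 (SE 0.07, edgeR adjusted p = 1.6e-11) in the atrium and -0.55 (SE 0.07, adjusted p = 9.5e-05) in the ventricle. The droplet dehydrogenase gene Hsd17b11 also fell in both, at -0.82 and -0.41 (edgeR adjusted p = 5.6e-06 and 0.026), and the caveolar gene Cav1 fell in the atrium (-1.28, adjusted p = 8.8e-09). Acsl3, a fatty acyl-CoA synthetase needed for early droplets, moved in opposite directions, with -0.38 in the atrium and 0.54 in the ventricle (edgeR adjusted p = 0.0026 and 0.0017; difference -0.92, adjusted p = 3.4e-05). The main triglyceride lipase gene Pnpla2 was lower in the ventricle (-0.32, edgeR adjusted p = 0.044), while its inhibitor gene G0s2 had -0.32 and -0.36 in atrium and ventricle (adjusted p = 0.18 and 0.21). G0s2 was called lower in the atrium with voom (-0.75, adjusted p = 6.6e-07), once the length slope entered the fit (-0.82, edgeR adjusted p = 1.1e-05), with slope and Y-linked share (-0.58, 0.019), without the tilted libraries (-0.75, 0.00014) and without hyperoxic atrium 2 alone (-0.50, 0.027).

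Of 16 tested other fat cell genes, 4 were higher and 7 lower in the atrium, and 1 and 2 in the ventricle. Besides Fabp4, the glycerol channel gene Aqp7 fell in the atrium from 1.59 ± 0.303 to 0.415 ± 0.101 CPM (log2 difference -1.93, SE 0.20, edgeR adjusted p = 1.7e-07), and so did Thrsp, linked to fat synthesis (-1.35, adjusted p = 0.0008). Mrap, a partner of the corticotropin receptor that fat cells make, rose there (1.03, SE 0.21, edgeR adjusted p = 0.00042), as did the lipase gene Lpl (0.55, adjusted p = 0.015). Lpl no longer passed without the tilted libraries (0.23, edgeR adjusted p = 0.19). Acsl1 was higher in the ventricle (0.29, edgeR adjusted p = 0.036).

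Among 19 tested brown fat and thermogenic genes, 6 were higher and 6 lower in the atrium, and 5 and 3 in the ventricle. The hormone gene Fgf21 had the largest log2 difference of the 19 in both chambers, from 0.137 ± 0.0503 to 4.96 ± 2.0 CPM in atria and from 0.0541 ± 0.0605 to 0.583 ± 0.425 in ventricles (SD, n = 5). Its log2 differences were 5.14 (SE 0.52, edgeR adjusted p = 9.7e-08) and 3.40 (SE 0.68, adjusted p = 0.0044). Fgf21 had 26 counts over the room-air atria and 7 over the room-air ventricles, where 2 libraries had none. Hyperoxic atria and ventricles held 891 and 87. The rank and the sizes therefore rest on room-air levels near 0, and the gene passed the filter through hyperoxic libraries. Ucp3, the uncoupling protein of muscle, fell in both chambers (-1.51 and -0.44, edgeR adjusted p = 4.9e-07 and 0.045). In the atrium Ebf2, a brown fat transcription factor, fell (-1.10, edgeR adjusted p = 1.9e-05) and Esrra, a regulator of oxidative metabolism, rose (0.60, adjusted p = 3.3e-05). Gk, which makes glycerol phosphate and lies on the X chromosome, rose in both (0.38 and 0.57, edgeR adjusted p = 0.01 and 0.0047). Its atrial value was 0.14 with the Y-linked share as a covariate (edgeR adjusted p = 0.47).

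Calls among partners of Pparg went both ways. Of 22 tested relatives, cofactors and fat cell transcription factors, 4 were higher and 9 lower in the atrium, and 3 and 2 in the ventricle. The atrial median was -0.21, against -0.06 for all genes. Cebpb, an early factor of fat cell formation that many stimuli raise, rose from 7.73 ± 0.790 to 28.1 ± 12.0 CPM in atria (log2 difference 1.86, SE 0.25, edgeR adjusted p = 3.3e-06). The retinoid receptor gene Rxrg (-1.2, edgeR adjusted p = 5.7e-05) and Ebf1 (-0.93, adjusted p = 1.6e-07) fell. Ppara, the PPAR receptor of fat oxidation, was higher in the ventricle (0.99, SE 0.24, edgeR adjusted p = 0.014). In the atrium it gave 0.47 (SE 0.24, edgeR adjusted p = 0.11), and it passed there with the length slope as a covariate (0.86, adjusted p = 0.0021). The coactivator gene Med1 was higher in the ventricle (0.36, edgeR adjusted p = 0.018).

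Known targets of PPAR receptors split as well. Of 27 tested, 12 were higher and 6 lower in the atrium, with a median of 0.24. Over the other settings the higher count ran from 2 to 14 and the lower one from 5 to 7. In the ventricle 4 were higher and 4 lower, with a median of -0.04. Acot2, a mitochondrial thioesterase gene, rose in the atrium (1.2, SE 0.12, edgeR adjusted p = 1.2e-07), with a chamber difference of 1.47 (adjusted p = 3.4e-06). Pdk4 rose in the atrium (0.36, edgeR adjusted p = 0.014), and Angptl4, a lipase inhibitor, was lower in the ventricle (-0.60, adjusted p = 0.022). The fatty acid transporter gene Cd36 gave -0.03 and -0.06 in atrium and ventricle (SE 0.11 each, edgeR adjusted p = 0.84 and 0.75). In room air 21 of the 27 were lower in the atrium than in the ventricle and 0 higher, against 26.3% and 28.7% of all genes. In hyperoxia 19 were lower and 2 higher, against 23.6% and 25.2%.

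**Figure D5:**
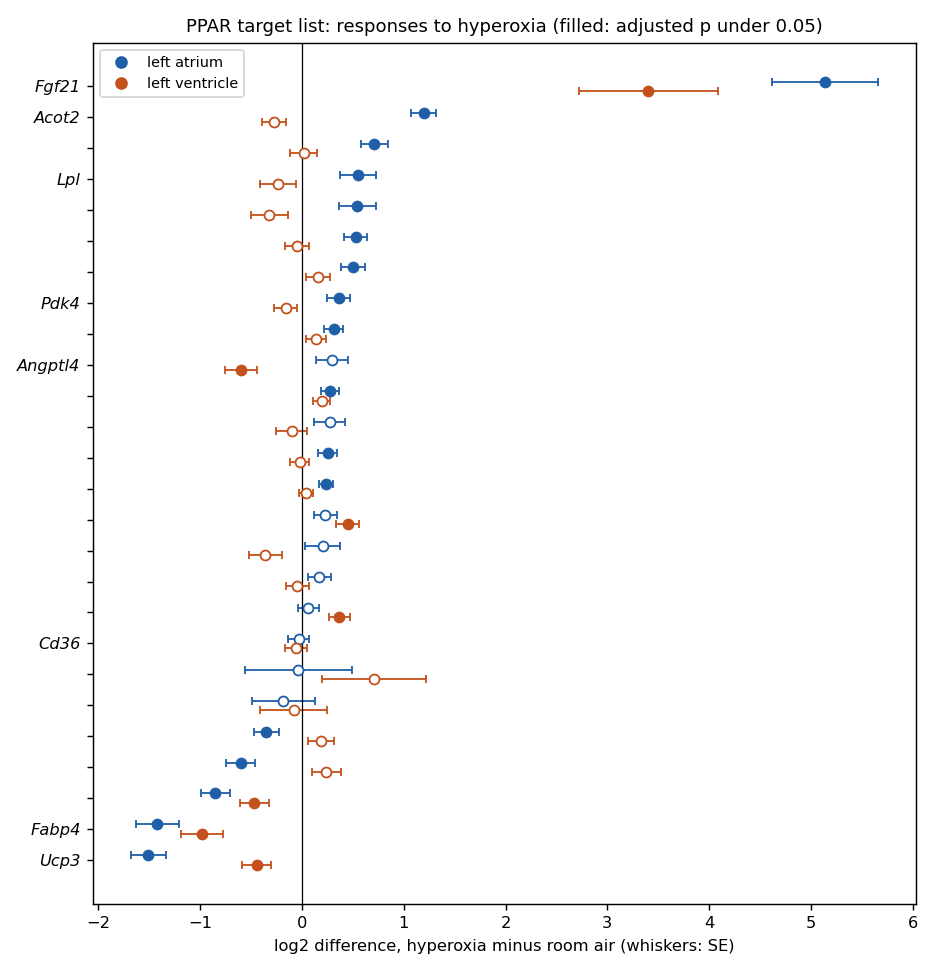
Log2 difference of hyperoxia minus room air (horizontal axis) with its SE for 26 of the 27 tested PPAR targets, in the left atrium (blue) and the left ventricle (orange), ordered by the atrial value, with names beside the genes described in the text. Filled points passed the edgeR test at an adjusted p under 0.05, and among the genes drawn Fgf21 (5.14) and Ucp3 (-1.51) have the highest and lowest atrial values.

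Some of these calls were lost in fits that took sex-linked reads into account. With the share of Y-linked reads as a covariate, Mgll and Fgf21 still passed in the ventricle. Among libraries whose Y-linked reads outnumbered Xist, with 2 hyperoxic ventricles, Fgf21 gave 3.25 and was not called. Under the covariate, other ventricular calls were lost. Fabp4, Pnpla2, Acsl1, Acsl3, Hsd17b11, Gk, Ucp3, Ebf1, Med1, Ppara and Angptl4 did not. The log2 differences of most of these were of much the same size under it. They were -0.91 for Fabp4, 0.93 for Ppara, -0.71 for Angptl4, -0.50 for Ucp3, -0.40 for Hsd17b11, -0.37 for Ebf1 and 0.32 for Med1. Those of Acsl3 (0.41), Gk (0.39), Pnpla2 (-0.23) and Acsl1 (0.21) were smaller. In the atrium Gk (0.14) and Pdk4 (0.02) were lost under it, and Hilpda, Lpl, Mrap and Pdk4 with length slope and Y-linked share together. Ventricular calls near the threshold were lost in other fits too. Leaving out hyperoxic ventricle 4 gave -0.26 for Pnpla2 and -0.41 for Ucp3 (edgeR adjusted p = 0.11 and 0.099). The same fit gave -0.28 for Ebf1 and 0.29 for Acsl1 (edgeR adjusted p = 0.096 and 0.063). Without room-air atrium 1, a library outside the comparison, Pnpla2 gave -0.32 and Ucp3 -0.44 (edgeR adjusted p = 0.054 and 0.053).

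Genes that varied most like each member within the groups were found from the deviations of log2(CPM + 0.5) from the group mean over 20 libraries, among 12712 genes. They were Ostc (Pearson r = 0.92), Tuba1b (0.90) and Anxa2 (0.90) for Cidea, and Nol3 (0.94), Ptpa (0.90) and Aup1 (0.89) for Plin2. For Plin4 they were Polg (0.82) and Cipc (0.81), and for Pparg Anxa9 (0.74) and Rad9b (0.66). The libraries share their length tilt: the same deviations had r = -0.77 with the length slope for Cidea, -0.74 for Plin2, 0.60 for Plin4 and 0.18 for Pparg. Between members, r was 0.54 for Cidea and Plin2 and -0.71 for Cidea and Plin4.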

How the data were processed

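The authors deposited 1 file per library with raw read counts per gene symbol, not normalized. The submitters' processing notes name STAR 2.7.6a, fastp 0.20.1, Salmon 1.3.0, featureCounts and Subread 2.0.1, with the genome build GRCm38.p6. Strand setting and annotation release of the counting are not given in the sources used here. Per the labels' protocols a stranded mRNA kit was used. The sample labels and the series text name different RNA extraction kits. All counts named a gene.

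The fit was made with edgeR 4.0.16 in R 4.3.3: filterByExpr on the 4 groups (16598 of 55367 genes), TMM scaling and a robust quasi-likelihood fit of all 20 libraries with 1 coefficient per group. Adjusted p are Benjamini-Hochberg values over the 16598 genes, and a gene passed under 0.05. SE is the log2 difference over the square root of F. Limits for 0 use 3 counts. Any 2 libraries of a group differed by a chi-square of at least 13.3 per degree of freedom, so no library repeats another. The script was tested on simulated data.

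The members and gene lists were chosen with earlier results of these data known, so counts over lists are descriptions. All members were named. From each list the text takes up to 4 genes with the smallest p in the atrial and up to 2 in the ventricular comparison, plus 12 fixed genes: Fabp4, Plin3, Plin5, Cideb, Pnpla2, G0s2, Hilpda, Lpl, Cd36, Angptl4, Pdk4 and Ppara. For each member of at least 1 CPM up to 3 of the most similar genes are given. A few genes that these rules chose are not reported here. Positions and exon lengths are from GENCODE, and promoters from RefSeq, both on GRCm38. Alternatives covered scaling, filters, DESeq2 1.42.0, voom in limma 3.58.1, covariates, a replicate block and libraries left out. The 3 settings with both covariates, with ventricular Myl7 or without the 3 ventricles that lay apart were chosen after seeing the data.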

Additional observations from a re-analysis of the deposited data

Results flagged for a closer look

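Most of the cases where a single library lay far from the rest of its group were in scarce members. Adipoq reached 0.964 CPM and Plin1 0.521 CPM in room-air atrium 3, each with the other 4 room-air atria far below. Cidec reached 0.152 CPM in room-air ventricle 2 (4 counts) and 0.0774 CPM in hyperoxic ventricle 2 (2 counts), and Plin1 reached 0.0299 CPM in hyperoxic ventricle 1 (1 count), with the other libraries of each group at or near 0. Plin4 was lowest in hyperoxic atrium 4, at 34.4 CPM, where the others lay at 50.1 to 56.2. Of 32 combinations of gene and group 6 stood out this way. Chance gives about 1 in 20 for measured levels, but that rate says nothing of 3 of the 6, where a single library held all counts of the group and is marked whatever its count.

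The hyperoxia response differed between the chambers for 3 members. The atrial minus the ventricular log2 difference was 1.79 for Cidea, 1.65 for Pparg and 1.01 for Plin2, each passing the edgeR test of the difference.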

How the results depend on the processing

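Of the 8 members, 4 passed in the atrium, 3 in the difference of the responses, 4 between chambers in room air and 3 in hyperoxia, and these counts stayed within 1.5 times under every alternative run. The ventricular count was 1. It became 3 with DESeq2 and with voom, and 2 with only the compared libraries and without the 3 tilted libraries. It was 0 with the Y-linked share as a covariate, in the subset whose Y-linked reads outnumbered Xist, with ventricular Myl7 as a covariate, and without the 3 ventricles that lay apart. Leaving out 1 library at a time gave 4 to 4, 1 to 2 (2 without hyperoxic atrium 4, when Cidea passed), 3 to 3, 4 to 4 and 3 to 3 members in atrium, ventricle, difference, room air and hyperoxia. Replicate numbers were not taken as pairs: same-numbered atria and ventricles of 1 oxygen level correlated at -0.00024 to 0.41, with 5 of 9 pairs over 0.1, and same-numbered libraries across oxygen levels at -0.20 to 0.46. In all 4 hyperoxic atrium and ventricle pairs both libraries lay on the same side for Y-linked against Xist reads, so a shared pup remains possible. A fit with the replicate number as a block (within the oxygen level for the difference and the chambers) gave 4 members in the atrium, 2 in the ventricle, 3 in the difference, and 4 and 3 between chambers. Over settings, all genes passing numbered 3573 to 9202 in the atrium, 88 to 3305 in the ventricle, 2274 to 7055 for the difference, and 8077 to 10663 and 6342 to 9918 between chambers in room air and hyperoxia. Some called or newly called values turned sign, and the cause was not tested. The subset whose Y-linked reads outnumbered Xist held 1 hyperoxic atrium, the tilted number 2. In that subset, Gk and Pdk4 in the atrium gave -0.0027 and -0.0030, the Hsd17b11 difference 0.050, and Rxrg between hyperoxic chambers 0.052. With length slope and Y-linked share, Lpl gave -0.028 in the atrium and -0.023 for the difference. The G0s2 difference was -0.52 with voom, -0.82 with the slope and -0.69 with both. Of 6116 gene values, 5816 kept their side of the threshold, 184 lost and 107 gained a call and 9 turned sign, while 144 that passed in neither fit changed sign. Of 1700 counts over gene lists 189 moved by over 1.5 times, 123 of them among the 350 for hyperoxia in the ventricle. Atrial list counts moved too. Over all other settings, 1 to 12 droplet genes were higher and 5 to 11 lower in the atrium. For other fat cell genes these were 0 to 7 and 5 to 8. Depth limits Adipoq, Cidec, Plin1 and Ucp1 to a description.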

Other observations

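The highest Ucp1 count of the hyperoxic atria, hyperoxic ventricles and room-air atria was each in the library numbered 4, with 14, 14 and 11 counts, while room-air ventricle 4 had 3. This was noticed after the values were seen. In room-air atrium 3, 37 counts of Adipoq, 20 of Plin1, 9 of Cfd and 5 of Cidec stood beside 7 of Ucp1 and 0 of Lep.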
